A study of Mus musculus with 8 samples.

Results

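The genes described here are the mouse genes of glycolysis, gluconeogenesis and glycogen metabolism, 43 of the 21612 genes that could be named on the array. They were taken by pathway membership, with no measured value in the rule, and every non-control probe whose transcript accession belonged to 1 of them was used, which gave 62 of 39429 probes. A gene entered the test when the scanner software had marked its probe as well above background in each of the 4 samples of either group. That left 39 of the 43 genes and 56 of their 62 probes, among 14311 genes tested on the whole array, and each of the 39 carried that mark on all 8 arrays.

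AML12 cells, a line grown out from hepatocytes of a mouse that carries a human TGF-alpha transgene, were cultured for 24 h in DMEM F-12 medium with fetal bovine serum, either without irisin (control) or with 0.5 µg/ml irisin, the secreted fragment of the muscle membrane protein FNDC5. RNA from 4 control and 4 irisin samples was labelled with Cy3 and hybridised to 1-colour Agilent mouse arrays. The labels do not say whether the 4 samples of a group came from separate cultures, so the p-values measure the spread between these samples, which may be technical. The 4 control arrays were on 1 slide and the 4 irisin arrays on another, so slide and treatment cannot be told apart in any comparison below.

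Glycolysis splits glucose into pyruvate and yields ATP, and gluconeogenesis runs most of the same enzymes backwards in liver to make glucose for the blood. The steps that cannot be run backwards are catalysed by different enzymes in each direction: hexokinase against glucose-6-phosphatase, phosphofructokinase against fructose bisphosphatase, and pyruvate kinase against pyruvate carboxylase with phosphoenolpyruvate carboxykinase. Hepatocytes also store glucose as glycogen, through glycogen synthase, and release it through glycogen phosphorylase. Dividing cells in culture often run glycolysis to lactate even with oxygen present.

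The labelled cell type was checked against marker genes. Of 9 hepatocyte markers on the array, 8 were well above background, among them Alb, Ttr and Hnf4a, and Cps1, the entry enzyme of the urea cycle, was not. Cholangiocyte markers Krt7, Krt19, Sox9 and Spp1 were also above background, whereas Epcam and Cftr were not, and the summed signal of that list ran from 20707 to 33030 on the control arrays and from 39504 to 50681 on the irisin arrays before scaling. For hepatocytes the sums were 44815 to 69160 and 85493 to 104808. Most of the cholangiocyte sum came from Krt19, which read 14330 to 23689 on the control arrays. Most of the hepatocyte sum came from Ttr, Hnf4a and Alb, at 16405 to 26372, 13283 to 19000 and 7072 to 12147 there. Apoa1 and Cyp2e1 passed the filter but were dim, at 56.8 to 84.1 and 21.7 to 37.6 on the control arrays. Fewer genes of other lists were measurable, namely 4 of 8 for stellate cells or fibroblasts, 2 of 6 for macrophages and 2 of 5 for endothelial cells, and Ptprc, Adgre1, Clec4f, Cdh5 and Stab2 did not pass the background filter. Their summed signals were 27562 to 39270, 189 to 306 and 278 to 412 on the control arrays and 40052 to 45103, 355 to 387 and 323 to 461 on the irisin arrays. Nearly all of the stellate cell or fibroblast sum came from Vim, which alone read 27509.5 to 39219.7 on the control arrays. Col1a1, Col1a2 and Acta2 read 10.1 to 32.1 there. Of the 20 tested marker genes 3 were called lower with irisin after scaling, against 10.2% of all tested genes. They were Col1a2, Acta2 and Pecam1, at -1.08, -0.68 and -0.61 on the log2 scale. Their probes were dim, with mean processed signals before scaling of 27.9, 12.8 and 21.6 on the control arrays and 22.2, 13.3 and 23.5 on the irisin arrays. By the adjusted p alone 6 of the 20 were lower and 0 higher, against 17.9% and 2.65% of all tested genes. Added were the brighter probes of Vim at -0.40, Csf1r at -0.49 and Kdr at -0.56, with mean signals of 34272, 121 and 331 on the control arrays. The part that any admixed cell type played in the results below was not tested, and fewer cells of a type and less RNA per cell cannot be told apart in such bulk samples.

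Unscaled brightness differed between the groups. The 75th percentile of the processed signal was 372 to 534 on the control arrays and 682 to 850 on the irisin arrays, while the share of probes above background was similar at 59.5 to 63.6% and 61.8 to 64.0%. All values below are log2 of the processed signal relative to the 75th percentile of the same array, so a value of 0 means a probe as bright as that percentile. Irisin replicate 2 stood apart: its log2 differences to irisin replicates 1 and 3 had SDs over all tested probes of 0.405 and 0.395, against 0.217 to 0.292 for the other pairs of arrays within a group. It was the highest of the irisin arrays for 26 of the 39 genes, as it was for 50.5% of all tested genes. Results are therefore given with it and, where they depend on it, without it.

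The promoter windows of 3 genes are printed first, because these genes passed the adjusted p below and their windows hold 1 of the 2 motifs searched. They run from 250 bases before to 50 bases after the annotated transcription start, are read 5′ to 3′ on the strand of the gene, and come from RefSeq on GRCm38.p6. The capitals mark CACGTG, the E-box read by basic helix-loop-helix factors such as MYC and the glucose-responsive factor ChREBP (MLXIPL), in the windows of Pfkfb2 and Ldha, and TATAAA, the core of the TATA box, in that of G6pc. The study listed both factors, as predicted to be inhibited, when it asked which regulators lay upstream of the irisin response. Pfkfb2 had 3 windows, Ldha 2 and G6pc 1, and of those of Pfkfb2 and Ldha only the printed one held CACGTG. The printed window of Pfkfb2 lies at chr1:130715772-130716071 on the minus strand, with the E-box starting 22 bases before that start site. That of Ldha lies at chr7:46845554-46845853 on the plus strand, with E-boxes 145 and 48 bases before its start. G6pc lies at chr11:101367466-101367765 on the plus strand, with the TATA box 29 bases before the start.
Pfkfb2: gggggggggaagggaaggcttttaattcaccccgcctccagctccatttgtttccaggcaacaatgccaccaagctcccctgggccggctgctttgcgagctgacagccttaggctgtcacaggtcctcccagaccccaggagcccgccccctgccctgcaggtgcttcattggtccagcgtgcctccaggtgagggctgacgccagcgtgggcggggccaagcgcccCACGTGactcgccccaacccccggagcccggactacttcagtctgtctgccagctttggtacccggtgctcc
Ldha: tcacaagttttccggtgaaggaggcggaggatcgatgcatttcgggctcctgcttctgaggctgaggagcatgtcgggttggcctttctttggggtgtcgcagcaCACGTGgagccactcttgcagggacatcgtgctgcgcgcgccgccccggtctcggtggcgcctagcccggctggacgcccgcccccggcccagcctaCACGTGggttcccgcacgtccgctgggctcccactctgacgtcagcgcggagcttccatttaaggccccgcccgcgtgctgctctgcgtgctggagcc
G6pc: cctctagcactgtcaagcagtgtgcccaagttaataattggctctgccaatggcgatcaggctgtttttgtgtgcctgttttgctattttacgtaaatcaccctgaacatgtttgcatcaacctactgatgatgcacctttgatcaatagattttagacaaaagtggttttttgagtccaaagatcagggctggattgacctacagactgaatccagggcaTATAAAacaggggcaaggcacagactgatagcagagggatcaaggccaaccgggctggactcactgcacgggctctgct
Of the 43 genes, 42 had at least 1 window, and Gys2 had no entry. CACGTG, which reads the same on both strands, was found in 8 of their 66 windows (12.1%), those of Pfkfb2, Pfkfb3, Pfkm, Ldha, Pdk2, Pcx, Fbp2 and G6pc3, and in 7.15% of all 32851 windows. TATAAA on either strand was found in 6 of the 66 windows (9.09%) and in 13.6% of all windows. A match is a description of the letters in the window and not a measured binding site.

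Across the set, few of these genes differed between the groups beyond the spread between arrays. The comparison asked which transcripts differed after 24 h with irisin, and a gene was called when it changed at least 1.5-fold with an adjusted p under 0.05 (limma, Benjamini-Hochberg over all tested probes). No gene was called higher, against 0.531% of all tested genes, and 1 gene, G6pc, was called lower, against 10.2% of all tested genes. By the adjusted p alone, Pfkfb2 was higher, against 2.65% of all tested genes, and Gapdh, Ldha and G6pc were lower, against 17.9%. At an unadjusted p under 0.05 there were 3 genes higher and 6 lower, against 5.94% and 23.6% of all tested genes. Without irisin replicate 2, 8 genes were lower by the adjusted p alone, with Pgam1, Eno1, Pkm, Slc37a4 and Gys1 added, against 22.01% of all tested genes, and the median of the 39 genes was -0.107. The median change of the 39 genes was -0.057 on the log2 scale and that of all tested genes -0.064, with 26 of the 39 below 0 and 64.0% of all tested genes below 0.

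Single arrays separated the groups for 8 of the 39 genes. All 4 irisin arrays lay above all 4 control arrays for 3 genes, Hk2, Pfkfb2 and Pdk1, against 4.16% of all tested genes. All 4 lay below for 5 genes, Gapdh, Eno1, Ldha, G6pc and Slc37a4, against 19.7% of all tested genes. The groups overlapped for the other 31. With 4 arrays against 4, such a separation gives the smallest exact two-sided permutation p that 70 assignments allow, 0.0286. For 34 of the 39 genes the 95% confidence interval of the change lay wholly within 1.5-fold in either direction. The exceptions were Pfkfb2, Ldha, Pdk1, Fbp1 and G6pc.

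**Figure D1:**
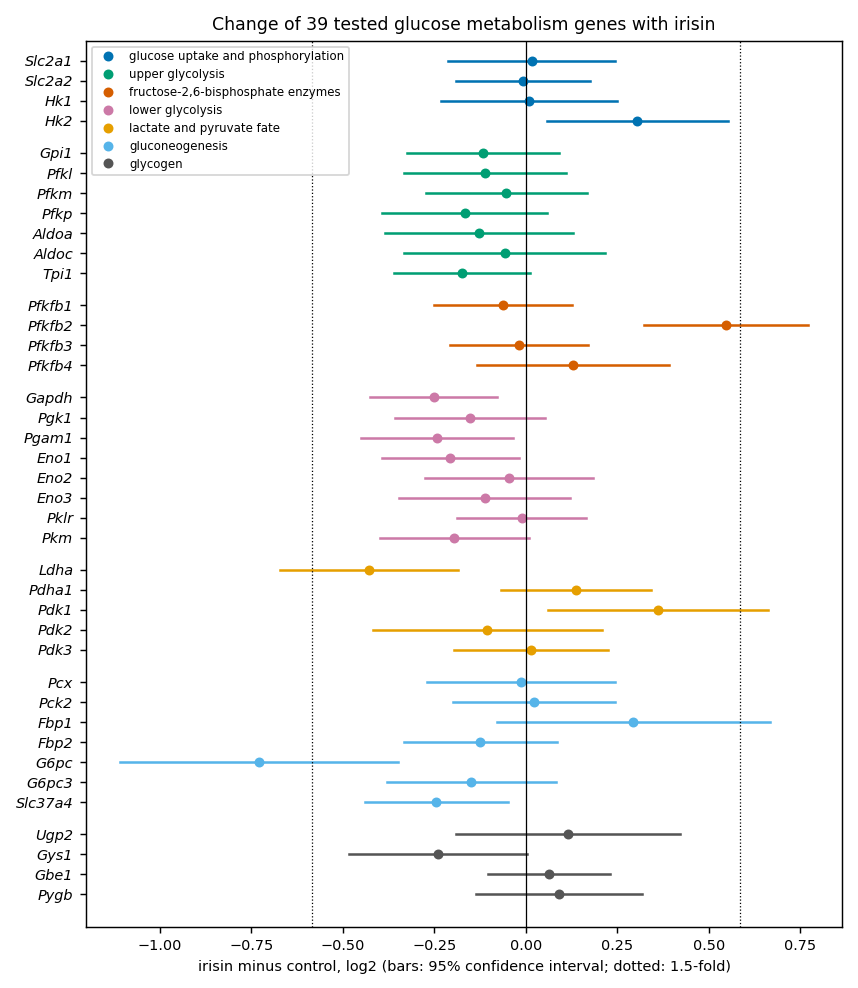
The horizontal axis gives irisin minus control on the log2 scale for each of the 39 tested genes, coloured by role, with points for the limma estimate from 4 arrays a group, bars for its 95% confidence interval and dotted lines at 1.5-fold. Most intervals lie between the dotted lines, all 15 genes of the upper and lower steps of glycolysis have their points below 0 with this scaling (6 of 15 under quantile normalisation), and Pfkfb2 at 0.55 and G6pc at -0.73 lie farthest from 0.

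Uptake and phosphorylation of glucose showed 1 gene that separated the groups. Hk2, the inducible hexokinase of muscle, fat and many tumours, read -0.47, -0.55, -0.69 and -0.68 on the 4 control arrays and -0.39, 0.00, -0.46 and -0.33 on the 4 irisin arrays. All irisin arrays were higher, irisin replicate 2 most of all, although the margin between the lowest irisin and the highest control array was narrow. The difference was 0.30 (SE 0.11), with an adjusted p of 0.075 by limma, and without irisin replicate 2 it was 0.21 (adjusted p = 0.097 by limma). Slc2a1 and Slc2a2, which encode the glucose transporters GLUT1 and GLUT2, differed by 0.02 (SE 0.10) and -0.01 (SE 0.08). Hk1, the housekeeping hexokinase, had 2 probes that did not move alike, the brighter one by 0.01 (SE 0.11) and the other by -0.26 (SE 0.12, adjusted p = 0.15 by limma).

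In the upper steps of glycolysis, from glucose 6-phosphate to the triose phosphates, all 7 genes had negative differences with the percentile scaling, 4 of 7 under quantile normalisation and 0 of 7 with spike-in scaling, and none separated the groups. The 3 phosphofructokinase genes, which encode the subunits of the enzyme that commits hexose phosphate to glycolysis, differed by -0.11 for Pfkl (SE 0.10), -0.05 for Pfkm (SE 0.10) and -0.17 for Pfkp (SE 0.10). Tpi1, triose phosphate isomerase, was the lowest of the 7 at -0.17 (SE 0.08, adjusted p = 0.17 by limma), and Gpi1, Aldoa and Aldoc lay between -0.13 and -0.06. None of the 7 passed the test, and their intervals all stayed within 1.5-fold. Their median was -0.12.

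Fructose 2,6-bisphosphate is the signal that switches phosphofructokinase on and fructose bisphosphatase off, and the 4 Pfkfb genes encode the enzymes that make and remove it. Pfkfb2, best known from heart and also found in kidney and liver, read -2.11, -2.13, -2.09 and -1.74 on the control arrays and -1.44, -1.50, -1.41 and -1.54 on the irisin arrays. The irisin arrays lay close together and above every control array, and control replicate 4 sat apart from the other 3 control arrays. The difference was 0.55 (SE 0.10, 95% confidence interval 0.32 to 0.77), a 1.46-fold rise with an adjusted p of 0.0025 by limma, just under the 1.5-fold limit of a call. Without control replicate 4 the difference was 0.64 (adjusted p = 0.00103 by limma), which made it a call. The 3 other genes of the family had differences of -0.06 for Pfkfb1 (SE 0.08), the liver and muscle form, -0.02 for Pfkfb3 (SE 0.08), the form with the highest ratio of kinase to phosphatase activity, and 0.13 for Pfkfb4 (SE 0.12). In each of those 3 the groups overlapped, and their differences from the change of Pfkfb2 were not tested.

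**Figure D2:**
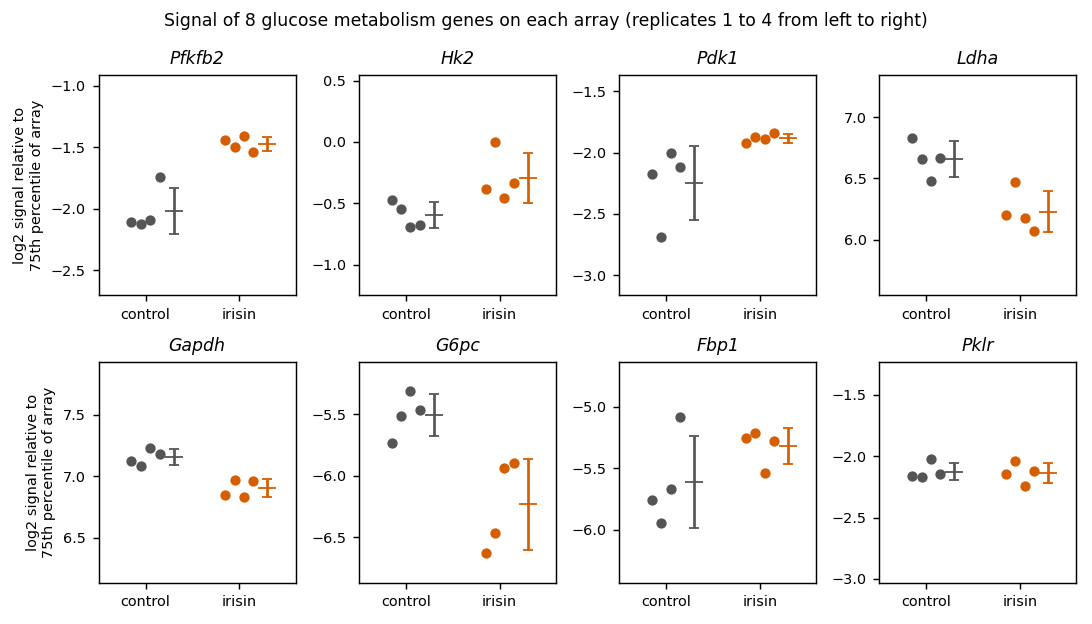
Each panel gives the scaled log2 signal of 1 gene (0 is the 75th percentile of its array), with a point for each of 4 control (grey) and 4 irisin (orange) arrays and, beside them, the group mean with its SD. The groups do not overlap for Pfkfb2, Hk2, Pdk1, Ldha, Gapdh and G6pc, and they overlap for Fbp1 and Pklr.

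The lower steps of glycolysis, which yield the ATP of the pathway, gave 8 negative differences out of 8 with the percentile scaling, 2 of 8 under quantile normalisation and 0 of 8 with spike-in scaling. With the percentile the median was -0.17. Gapdh, glyceraldehyde phosphate dehydrogenase, read 7.13, 7.08, 7.23 and 7.18 on the control arrays and 6.85, 6.97, 6.83 and 6.96 on the irisin arrays with its brightest probe. The groups were separate, by a difference of -0.25 (SE 0.08, adjusted p = 0.039 by limma), 0.84 of the control signal. The adjusted p was above 0.05 when any array other than irisin replicate 2 was left out, for example 0.104 by limma without control replicate 3. Gapdh is often used as a reference gene and has 7 probes here, all with negative differences between -0.44 and -0.21, of which 3 passed the adjusted p. The mouse genome holds many Gapdh pseudogenes, so probes for it may also capture near-identical copies, as may those of Aldoa, Pgam1 and, through Eno1b, Eno1.

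Eno1, the main enolase outside muscle and neurons, also had all irisin arrays lower, at 5.61, 5.86, 5.71 and 5.68 against 5.88, 5.88, 6.02 and 5.91. Its difference of -0.21 (SE 0.08) missed the threshold with an adjusted p of 0.11 by limma, and that of Pgam1, phosphoglycerate mutase, was -0.24 (SE 0.09, adjusted p = 0.091 by limma). Without irisin replicate 2 they were -0.26 and -0.30, with adjusted p of 0.029 and 0.023 by limma. The 2 pyruvate kinase genes were Pkm, the form of muscle and dividing cells, at -0.20 (SE 0.09, adjusted p = 0.16 by limma), and Pklr, the form of liver and red cells, at -0.01 (SE 0.08). Pgk1, Eno2 and Eno3 lay between -0.15 and -0.05 and did not pass the test.

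At the fork between lactate and mitochondrial oxidation, 1 gene was lower and 1 higher in every irisin array. Ldha, the lactate dehydrogenase subunit that favours lactate, read 6.83, 6.66, 6.48 and 6.66 on the control arrays and 6.20, 6.47, 6.17 and 6.08 on the irisin arrays. Irisin replicate 2 lay just under the lowest control array, and the other 3 irisin arrays were lower. The difference was -0.43 (SE 0.11, adjusted p = 0.015 by limma), 0.743 of the control signal, and without irisin replicate 2 it was -0.51 (adjusted p = 0.0038 by limma). Without irisin replicate 4 it was -0.38, with an adjusted p of 0.052 by limma. The 2 other Ldha probes gave -0.34 and -0.26 with overlapping groups. Ldhb, the subunit of heart-type lactate dehydrogenase, was well above background on 0 of the 8 arrays.

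Pdk1, a kinase that switches off pyruvate dehydrogenase and so keeps pyruvate from the mitochondrial cycle, read -2.18, -2.69, -2.004 and -2.12 on the control arrays and -1.93, -1.88, -1.89 and -1.84 on the irisin arrays. The irisin values were tight and above all control values, and control replicate 2 was low. The difference was 0.36 (SE 0.13, adjusted p = 0.08 by limma), which was 0.21 without control replicate 2 (adjusted p = 0.13 by limma) and 0.44 without control replicate 3 (adjusted p = 0.046 by limma). Its relatives Pdk2 and Pdk3 differed by -0.10 (SE 0.14) and 0.01 (SE 0.09), and Pdha1, a subunit of pyruvate dehydrogenase itself, by 0.14 (SE 0.09).

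Gluconeogenesis held the only called gene. G6pc, the catalytic subunit of glucose-6-phosphatase that releases free glucose from liver, read -5.73, -5.51, -5.31 and -5.47 on the control arrays and -6.63, -6.47, -5.93 and -5.90 on the irisin arrays. All irisin arrays were lower, replicates 1 and 2 more so than replicates 3 and 4. The difference was -0.73 (SE 0.17, 95% confidence interval -1.11 to -0.35), 0.604 of the control signal, with an adjusted p of 0.0095 by limma. Before scaling, the processed signals were 6.99, 10.7, 13.4 and 11.3 on the control arrays and 8.03, 7.70, 13.2 and 14.3 on the irisin arrays, which overlapped. The call held with each array left out in turn, at differences of -0.84 to -0.60. It ended under quantile normalisation (-0.27), cyclic loess (-0.25), spike-in scaling (-0.15) and normexp background correction (0.42), and was not made by the methods' test, which takes the spread of each probe alone (adjusted p = 0.055).

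The other gluconeogenic genes did not pass the test. Fbp1, liver fructose bisphosphatase, read -5.76, -5.95, -5.67 and -5.08 on the control arrays and -5.25, -5.21, -5.54 and -5.28 on the irisin arrays, with overlap through control replicate 4, a difference of 0.29 (SE 0.17) and an adjusted p of 0.26 by limma. Without control replicate 4 the difference was 0.47 (adjusted p = 0.017 by limma). Slc37a4, the transporter that brings glucose 6-phosphate to G6pc in the endoplasmic reticulum, was lower on all irisin arrays by -0.24 (SE 0.09, adjusted p = 0.07 by limma), and G6pc3, the ubiquitous phosphatase, differed by -0.15 (SE 0.10). Pcx, pyruvate carboxylase, and Pck2, the mitochondrial phosphoenolpyruvate carboxykinase, differed by -0.01 (SE 0.12) and 0.02 (SE 0.10). Pck1, the cytosolic form and a classic target of glucagon and insulin in liver, was well above background on 1 of 8 arrays, control replicate 2, and was not tested. Fbp2, the muscle form, differed by -0.12 (SE 0.09).

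Of the 6 glycogen genes, 4 were measurable and none separated the groups. Gys1, the glycogen synthase found outside liver, differed by -0.24 with its brighter probe (SE 0.11, adjusted p = 0.15 by limma) and by 0.02 with the other (SE 0.11). Ugp2, which makes the UDP-glucose that glycogen synthase uses, Gbe1, the branching enzyme, and Pygb, the brain phosphorylase, differed by 0.11 (SE 0.14), 0.06 (SE 0.08) and 0.09 (SE 0.10). Gys2 and Pygl, the synthase and phosphorylase that define liver glycogen metabolism, reached that background mark on 0 of the 8 arrays with any of their probes.

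The brightness of a probe moved together with its difference on this array. Tested genes were divided into deciles by mean signal, and the median difference was -0.57 in decile 1, the dimmest, -0.30 in decile 2 and between -0.05 and 0.01 in deciles 4 to 9, then -0.15 in decile 10. G6pc was the only member in decile 1, where 48.1% of all genes were called lower. Fbp1 and Fbp2 were in decile 2, where 32.9% were called lower and the median was -0.30, and Fbp1 stood above that median. Decile 10 held 9 members, Gpi1, Aldoa, Tpi1, Gapdh, Pgk1, Pgam1, Eno1, Pkm and Ldha, whose median was -0.20 beside -0.15 for all its genes. Pfkfb2, Pdk1 and Hk2 lay in deciles 4 and 5, whose medians were 0.00 and 0.01. These deciles order probes and not transcript levels, and the part of brightness in any single difference was not tested.

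**Figure D3:**
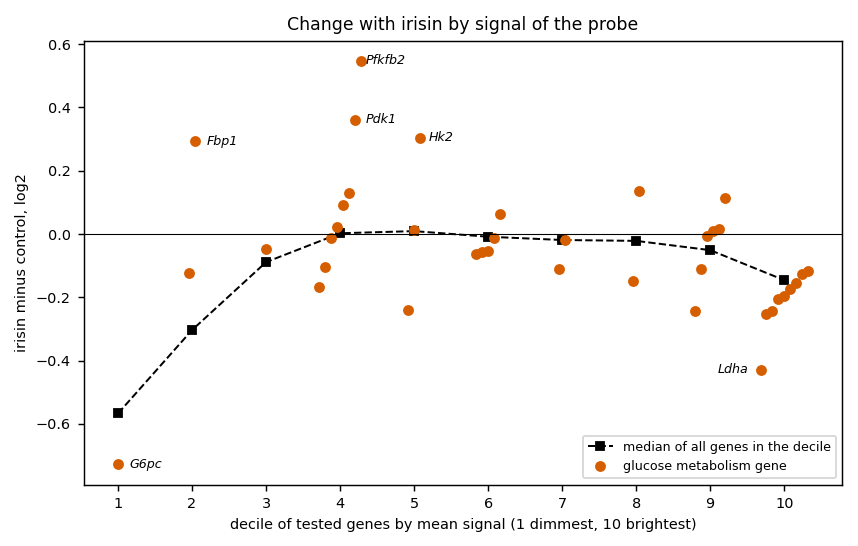
The horizontal axis gives the decile of all tested genes by mean signal of the probe and the vertical axis irisin minus control on the log2 scale, with orange points for the 39 genes (spread sideways within a decile) and black squares for the median of all genes of the decile. The squares run from -0.57 in the dimmest decile to about 0 in the middle and -0.15 in the brightest, where Ldha at -0.43 is the lowest of 9 members.

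Several of these directions changed with the scaling between arrays. After quantile normalisation, which gives every array the same distribution of signals, 1.99% of all tested genes were called higher and 3.82% lower, against 0.531% and 10.2% with the percentile. The median of the 39 genes was then 0.06 beside 0.01 for all tested genes. G6pc had an adjusted p of 0.29 by limma, Ldha was -0.08 and Gapdh 0.13, whereas Pfkfb2 kept a difference of 0.55 (adjusted p = 0.0058 by limma). Fbp1 became a call at 0.69 (adjusted p = 0.022 by limma). Its probe was dim, with processed signals before scaling of 6.86 to 14.7 on the control arrays and 17.3 to 21.9 on the irisin arrays. Cyclic loess gave much the same, with -0.15 for Ldha, 0.07 for Gapdh, 0.56 for Pfkfb2 and 0.71 for Fbp1.

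Scaling to 8 spike-in controls, added RNAs whose amount does not depend on the cells, raised the median of all tested genes to 0.51 and that of the 39 genes to 0.52, a difference of 0.01 between them. Like the percentile, the spike-in scale takes a single value off each array. It therefore moved the difference of every gene read on all 8 arrays by the same amount and could not change their order. Pfkfb2 was thus again the highest of the 39 genes, at 1.12. G6pc was the lowest, at -0.15. Ldha at 0.15 and Gapdh at 0.32 changed sign against 0, and their place below the median of all genes was fixed in the same way. The 3 Ldha probes stayed negative under quantile normalisation and cyclic loess, between -0.36 and -0.08, while of the 7 Gapdh probes 5 were negative and 2 positive under each.

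**Figure D4:**
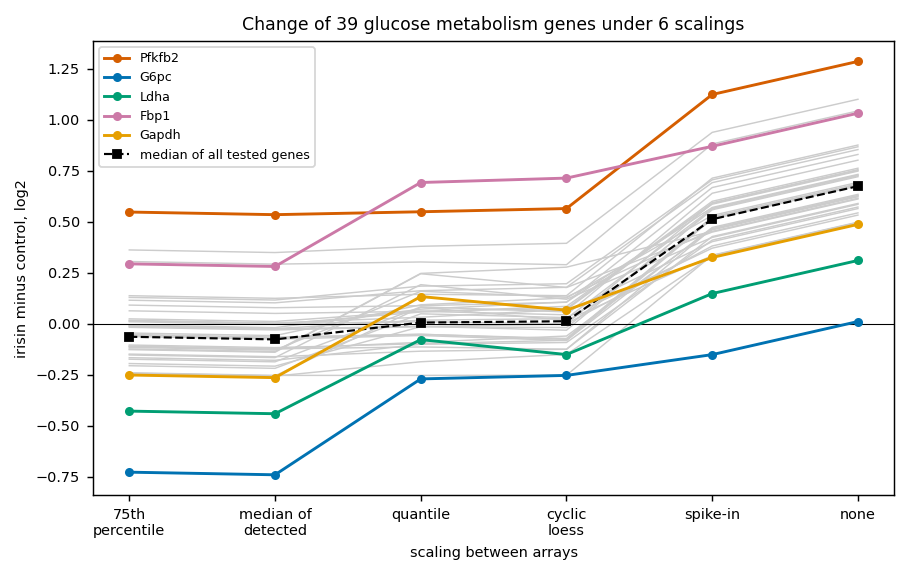
The horizontal axis gives 6 ways of scaling the arrays and the vertical axis irisin minus control on the log2 scale, with a grey line for each of the 39 genes, 5 of them coloured, and a dashed line for the median of all tested genes. Pfkfb2 keeps 0.53 to 0.56 under the first 4 scalings, G6pc rises from -0.73 to -0.27 under quantile normalisation, and spike-in scaling and no scaling lift the whole array.

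Neighbouring genes of glucose metabolism were read from a list of 89 further enzymes, transporters and regulators, of which 88 were on the array and 79 were tested. By the same rule 3 were called higher and 4 lower, against 0.531% and 10.2% of all tested genes, and their median was -0.03. By the adjusted p alone 4 were higher and 8 lower, against 2.65% and 17.9%. The 3 were Myc, a transcription factor that binds the E-box, at 0.63 (SE 0.08, adjusted p = 0.00036 by limma), Insr, the insulin receptor, at 0.76 (SE 0.11, adjusted p = 0.00064 by limma), and Pgm2, of the phosphoglucomutase family, at 0.61 (SE 0.11, adjusted p = 0.0023 by limma). Myc read 2.45, 2.38, 2.45 and 2.65 on the control arrays and 3.098, 3.104, 3.16 and 3.11 on the irisin arrays, with a wide gap between the groups. Insr had 2 more probes, at 0.64 and, for a dim one, at 0.01.

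The 3 higher genes kept their calls under quantile normalisation and cyclic loess. They were also called under spike-in scaling, which raised all differences alike and called 33.4% of all tested genes higher. None of the 3 was called under normexp background correction, Insr and Pgm2 were not called, at 0.56 and 0.58, in a normexp version chosen after seeing the data that left out spots of bright local background, Insr was not called with the mean over its probes (0.47), and Pgm2 was not called without irisin replicate 3 (0.52). The lower genes reported here were Galt of galactose metabolism at -0.79 and the monocarboxylate transporters Slc16a1 at -0.62 and Slc16a3 at -0.66. They were not called under quantile normalisation or cyclic loess, and under quantile normalisation they stood between -0.40 and -0.29. Nor were they called under spike-in scaling, where 1.29% of all tested genes were called lower. Mlxipl, which encodes ChREBP, differed by 0.19 with its brighter probe (SE 0.10, adjusted p = 0.21 by limma) and by -0.15 with the other. Txnip, an inhibitor of glucose uptake and a textbook ChREBP target, was higher by 0.35 with its brighter probe (SE 0.08, adjusted p = 0.01 by limma) and lower by -0.36 with a dim second probe (adjusted p = 0.039 by limma), so its direction was not settled.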

How the data were processed

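The scanner files held processed signal intensity, which the authors deposited as Agilent Feature Extraction output (version 12 per the labels) for 43020 non-control spots an array. Feature Extraction had subtracted background, and the files hold no normalization between arrays. The deposited value table held the same intensity per probe, within 0.0005%, unscaled and linear. Here log2 of the processed signal minus the 75th percentile of each array was computed with outlier spots left out and spots of a probe averaged, 24092 probes passed the background filter, and groups were compared with limma 3.58.1 in R 4.3.3 (lmFit, eBayes) without a block. The probe of highest mean signal stood for its gene. Symbols came from RefSeq GRCm38.p6 through transcript accessions (28663 probes). All member genes are named. Fuller statistics were meant for called genes, the 12 largest changes and the control points of the pathways, though for several of these only part is printed, such as the difference and its SE. Other pathway genes are named where called, with Mlxipl and Txnip chosen after their values were seen. The result for 1 called gene is not reported here. Members and lists were chosen with earlier results of these data known. On simulated data 183 of 200 changes of 2-fold were recovered, and 3 of the unchanged probes were called, among 24092. The simulated noise was independent between probes, with no slide effect and no shift with brightness, so it cannot give the rate of false calls in these data. Changes near the 1.5-fold limit were not simulated. Precision is limited by the 4 arrays a group. Alternatives covered background correction, scaling, filter, probe choice, model, test, thresholds, a replicate block and leaving out each array.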

Additional observations from a re-analysis of the deposited data

Results flagged for a closer look

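In 5 of 78 groups of 4 arrays, 1 array lay far from the other 3 by Dixon's criterion at 95%, which chance alone meets in about 1 in 20 groups. On control replicate 4, Pfkfb2 read -1.74 while the other control arrays read -2.13 to -2.09, and its rise is 0.64 without that array. On the same array Pdha1 read 1.56, below the 1.71 to 1.73 of the others. Control replicate 3 was high for Pklr at -2.02 (others -2.17 to -2.15) and for Pdk3 at -0.34 (others -0.63 to -0.59). Irisin replicate 3 was high for Pfkp at -2.66 (others -2.81 to -2.79). Without the array concerned, the differences of Pdha1, Pklr, Pdk3 and Pfkp still did not pass the test.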

How the results depend on the processing

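The number of member genes called higher was 0 with the percentile scaling. It was 1 under quantile normalisation and cyclic loess (Fbp1 in both), 13 on the spike-in scale, 28 unscaled (1.99%, 2.12%, 33.4% and 66.8% of all tested genes), and 1 by the adjusted p alone (Pfkfb2). The number called lower was 1 (G6pc). It was 0 under normexp background correction, under quantile normalisation, cyclic loess, spike-in scaling, no scaling, the methods' test and a 2-fold limit, 3 by the adjusted p alone (Gapdh, Ldha, G6pc), and 4 with no filter on dim probes (Ldhb, Pck1, G6pc, Pygl), 3 of which had failed the filter, against 29.0% of all genes. The median change of -0.057 became 0.057 under quantile normalisation, 0.043 under cyclic loess, 0.52 on the spike-in scale and 0.68 unscaled, beside 0.67 for all tested genes in the latter. With each array left out in turn, 0 to 1 genes were called higher (Pfkfb2 without control replicate 4), 1 to 1 lower, and the median ran from -0.107 without irisin replicate 2 to -0.016 without control replicate 3. With the deposited value table, outlier spots kept, detected-probe median scaling, the stricter background filter, a trended robust variance or the mean over probes, 0 genes were called higher and 1 lower.

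Normexp called 0 genes of the whole array in either direction, and its fitted background means were -306 and -395 on irisin replicates 2 and 4 against -10.7 to -8.06 on the other 6 arrays. A version chosen after seeing the data left out the 8 and 5 spots of bright local background on those arrays and used quantile normalisation, and gave 0 called higher, 0 called lower and a median of 0.032. G6pc turned to 0.42 under normexp (adjusted p = 0.65 by limma) and to 0.010 unscaled (adjusted p = 0.96 by limma), and was -0.06 in the added version. Fbp1 was 0.14 in the added version (adjusted p = 0.045 by limma) and was not called. With no scaling, 15 further genes with negative changes turned positive and were called, at Slc2a2 0.73, Gpi1 0.62, Pfkl 0.63, Pfkm 0.69, Aldoa 0.61, Aldoc 0.68, Pfkfb1 0.68, Pfkfb3 0.72, Eno2 0.69, Eno3 0.63, Pklr 0.73, Pdk2 0.63, Pcx 0.73, Fbp2 0.61 and G6pc3 0.59, beside a median of 0.67 for all tested genes. Leaving out the scaling moved the difference of every gene read on all 8 arrays by the same amount, so these sign changes are not particular to the 15 genes. The cause of the differences between the other settings was not tested.

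Replicate numbers did not pair the samples: the deviations of same-numbered arrays from their group means correlated at 0.11, -0.35, -0.13 and 0.17. With a replicate block, 0 genes were called higher and 1 lower, with a median of -0.057, and by the adjusted p alone Gapdh was no longer lower. Pck1, Gys2, Pygl and Ldhb did not pass the background filter.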
